A study of Mus musculus with 12 samples.

Results

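Lymphatic valves are held together and oriented by gap junctions, a tight junction protein and the planar polarity cadherins, and 8 genes for these parts were followed in lung lymphatic endothelial cells (LECs) of mice that breathed cigarette smoke (CS) or room air (RA). They were chosen by name for their roles, with earlier results of these data known: the connexins Gja1, Gja4 and Gja5, the claudin Cldn11, the core polarity genes Celsr1 and Vangl2, and the giant cadherins Fat4 and Dchs1. All 8 were found among the 52636 gene identifiers counted, and all 8 passed the filter on low counts, which left 21440 genes. Bulk RNA was sequenced from live GFP+ CD31+ cells, negative for EpCAM and for a blood lineage cocktail, sorted from digested lungs of Prox1-EGFP mice, in which regulatory sequence of the lymphatic transcription factor gene Prox1 drives GFP. By the study's text, the acute groups, labelled 8wk, were exposed for 8 weeks and the chronic groups, labelled Aged, for 24 weeks or more. Exposure started at 6 weeks of age. The labels also give 8 weeks as the age of the acute mice, which conflicts with that start and was read here as the time of exposure. Both kinds of control breathed RA and carried the same reporter. The acute exposure gave 2 CS and 2 RA libraries and the chronic exposure 5 CS and 3 RA libraries, named here by sex (F, M) and the number in their labels. Each acute library was pooled from 2 to 5 mice and the chronic libraries were not pooled, so length of exposure, age and pooling cannot be told apart between the time points.

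Valve leaflets are folds of endothelium around a matrix core that keep lymph from flowing back, and they form where disturbed flow and the transcription factors FOXC2, GATA2 and PROX1 act on collecting vessels. Connexins assemble into gap junction channels that pass ions and small molecules between neighbouring cells, and Gja1 and Gja4 are both needed for normal lymphatic valves in mice. Celsr1 and Vangl2 belong to the core planar cell polarity system and Fat4 and Dchs1 to the Fat-Dachsous system, which together align cells in the plane of a sheet while leaflets extend.

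The sequence just upstream of Gja1, Gja4 and Gja5 is shown for the following reason. Gja1 was the only one of the 8 genes called in any comparison of the main edgeR fit given below. Gja4 and Gja5 were not called with it. The stretches are the 250 bases before the RefSeq start (GRCm38.p6), given 5′ to 3′ on the strand of the gene. Capitals mark letters that matched a search on both strands for the elements of AP-1, GATA, forkhead and KLF factors and for a TATA box, spelled out after the sequences. They are Gja1 at chr10:56377050-56377299 on the plus strand, Gja4 at chr4:127314040-127314289 on the minus strand and Gja5 at chr3:97032152-97032401 on the plus strand.
Gja1: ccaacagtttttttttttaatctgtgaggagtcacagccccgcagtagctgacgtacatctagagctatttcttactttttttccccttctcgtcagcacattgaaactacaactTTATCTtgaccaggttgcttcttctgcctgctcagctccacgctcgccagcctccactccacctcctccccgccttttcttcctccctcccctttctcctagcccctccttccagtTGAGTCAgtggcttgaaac
Gja4: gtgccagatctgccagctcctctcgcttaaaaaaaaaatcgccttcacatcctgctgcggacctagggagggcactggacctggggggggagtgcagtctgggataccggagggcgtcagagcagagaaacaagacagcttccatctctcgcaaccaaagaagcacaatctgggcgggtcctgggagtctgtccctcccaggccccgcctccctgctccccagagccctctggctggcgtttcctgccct
Gja5: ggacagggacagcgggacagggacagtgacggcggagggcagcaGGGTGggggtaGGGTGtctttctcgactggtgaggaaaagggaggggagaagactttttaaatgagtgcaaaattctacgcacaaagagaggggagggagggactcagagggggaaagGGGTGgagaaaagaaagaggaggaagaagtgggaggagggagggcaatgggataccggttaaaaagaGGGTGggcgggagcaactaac

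The Gja1 stretch held TGAGTCA from 19 to 13 bases before the start and TTATCT, the GATA letters on the other strand, from 135 to 130 bases before it. Of 32841 mouse promoter stretches of this length, 4.46% held these AP-1 letters on either strand. The GATA letters, AGATAA as searched, stood in 9.99% of all stretches. The Gja5 stretch held the KLF letters, searched as CACCC, at 4 places, each read here from the other strand, and 52.0% of all stretches held them at least once. The Gja4 stretch held none of the letters searched. Those of forkhead factors, TGTTTAC, stood in 3.17% of all stretches. Those of the TATA box, TATAAA, stood in 12.4% of them. No match in these stretches overlapped another. Such matches describe these letters in these windows and are no measure of binding. The 5′ ends of RefSeq and GENCODE are not the same for every gene, and the stretch of Gja5 lies inside the longer gene that GENCODE annotates. Of the 8 genes, 6 were in the RefSeq promoter table. Of the others, Cldn11, Vangl2 and Fat4 each held the KLF letters once.

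Expression is given as CPM, the deposited counts of each library scaled to a common total with edgeR's TMM factors. Levels of different genes are compared as FPKM, which also divides by the length of the gene's exons. That length takes all annotated exons of a gene together, so a gene read mainly from a shorter transcript gets too low an FPKM. Per length, Gja1 led in both RA groups, at 221 ± 26.2 FPKM (SD, n = 2) in acute RA and 214 ± 21.3 FPKM (SD, n = 3) in chronic RA. Gja4 followed, at 51.9 ± 2.17 FPKM (SD, n = 2) and 82.7 ± 30.7 FPKM (SD, n = 3), and did not overlap Gja1 in either group. These levels placed Gja1 above 99.3% and Gja4 above 95.4% of 21404 genes in acute RA. The other 6 genes stayed below 9 FPKM in every RA library. In chronic RA they stood in the order Celsr1 (6.62 ± 1.47 FPKM), Dchs1 (4.28 ± 0.343 FPKM), Vangl2 (1.99 ± 0.0707 FPKM), Cldn11 (1.37 ± 0.212 FPKM), Gja5 (0.601 ± 0.406 FPKM) and Fat4 (0.496 ± 0.118 FPKM; SD, n = 3 for each). Of the neighbours in that order, Gja5 and Fat4 overlapped between libraries and the others did not. In acute RA, Dchs1 stood ahead of Celsr1, and Vangl2, Gja5 and Cldn11 overlapped in turn. In chronic CS, each neighbour from Celsr1 to Cldn11 overlapped the next. In acute CS, Gja4 (102 ± 10.5 FPKM) and Gja1 (96.3 ± 39.3 FPKM; SD, n = 2 for each) overlapped.

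Smoke was set against room air at each time point in 1 edgeR fit of all 12 libraries, with a quasi-likelihood F-test and Benjamini-Hochberg adjustment over the 21440 genes, and a gene was called where its adjusted p was under 0.05. In acute CS, 1 of the 8 genes was called, against 3.47% of all genes. It was Gja1, which was lower. Of the 8 genes, 3 (Gja1, Gja5 and Fat4) had an unadjusted p under 0.05, against 15.7% of all genes. In 6 of 8 the acute CS and RA libraries did not overlap, against 49.9% of all genes, a share that 2 libraries in each group make high for any gene. Their log2 fold changes were positive in 4 and negative in 4, with a median of 0.32 beside 0.04 for all genes.

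**Figure D1:**
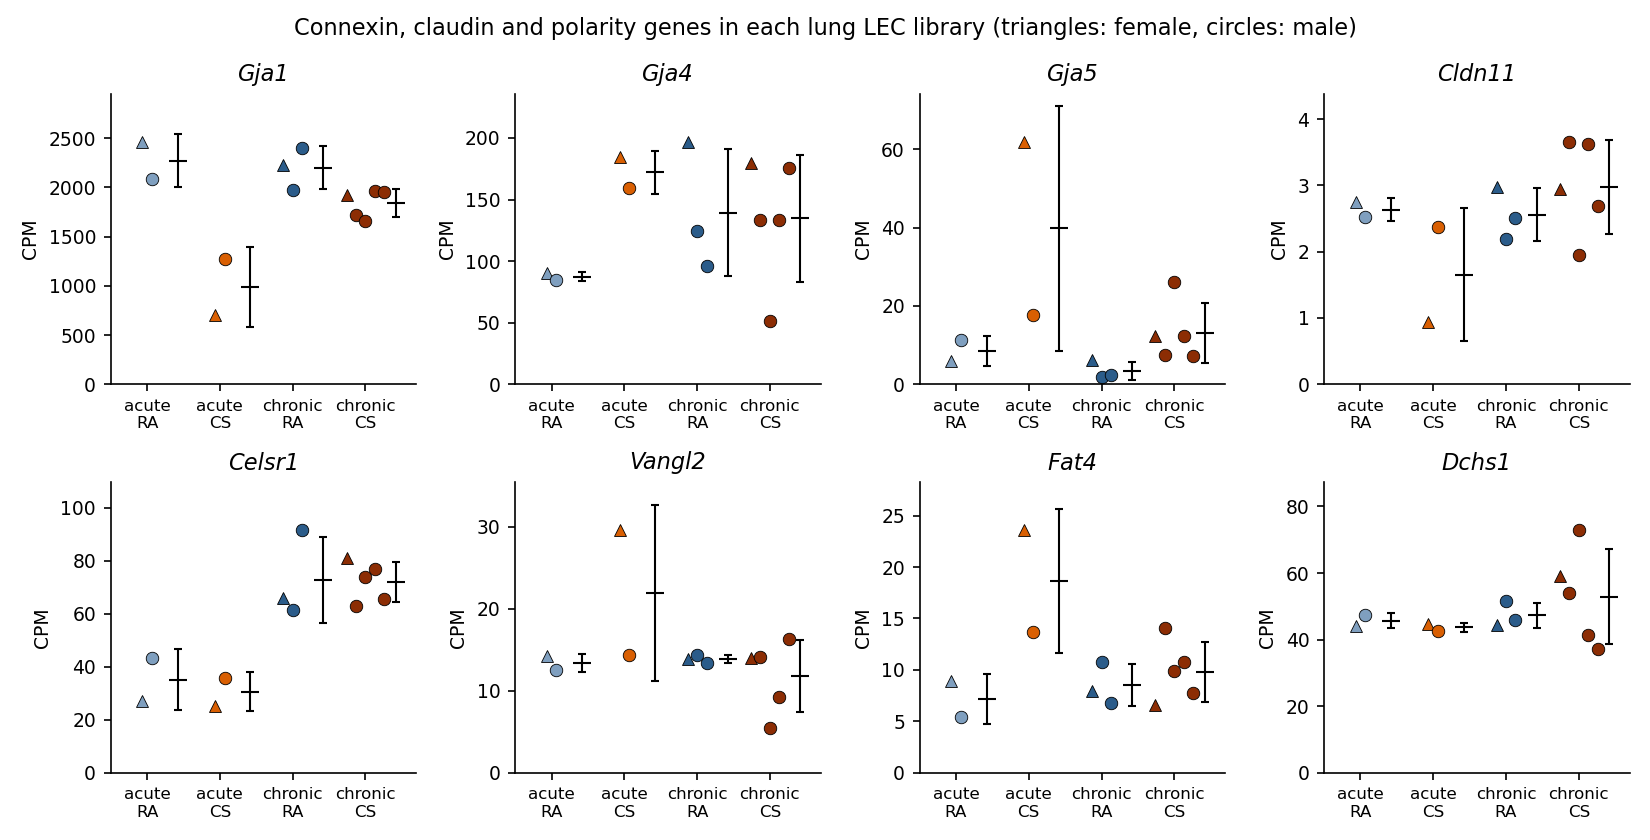
Each panel plots 1 gene, with expression in CPM on a linear axis from 0 and the 4 groups on the other axis; triangles are female and circles male libraries, and the bar beside each group is the mean ± SD. Gja1 was lowest in the 2 acute CS libraries, Gja5 was highest in acute CS F, and Celsr1 was higher in the 8 chronic than in the 4 acute libraries.

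Gja1 (ENSMUSG00000050953, chr10:56377330-56402513 of GRCm38, plus strand) encodes the connexin most widely used in gap junctions of mammalian tissues. It was counted at 2460.4 and 2081 CPM in acute RA F and M, and at 703 and 1273 CPM in acute CS F and M. Both smoke libraries lay below every other library of the series, and the female library below the male. The log2 fold change was -1.20 (SE 0.23, 95% interval -1.70 to -0.70), a fall to 0.435 of the RA level, with an edgeR adjusted p of 0.0181. The exact two-sided permutation test gave p = 0.333, the smallest that 2 against 2 libraries allow. The call was lost when acute CS F was left out (log2 fold change -0.83, edgeR adjusted p = 0.0625), when acute RA F was left out (-1.07, edgeR adjusted p = 0.144) and when acute RA M was left out (-1.35, edgeR adjusted p = 0.095). Each of these fits leaves 1 library in an acute group, which is assumed to vary like the other groups. The call was also lost when only the acute libraries were fitted (-1.22, edgeR adjusted p = 0.152).

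Prox1, which all LECs express, moved with Gja1. It was counted at 2239 and 2476 CPM in acute RA F and M and at 1042 and 1262 CPM in acute CS F and M, a log2 fold change of -1.03 (SE 0.16, edgeR adjusted p = 0.00797). Per 100 Prox1 reads there were 110 and 84.0 Gja1 reads in acute RA F and M, and 67.4 and 101 in the smoke libraries of the same sexes. On that scale the groups overlapped. With libraries scaled to 6 lymphatic marker genes in place of TMM, the log2 fold change of Gja1 was -0.56 and its edgeR adjusted p 0.0623. That scaling moved the median of all genes from 0.04 to 0.77. In bulk samples, fewer LECs and less RNA per LEC cannot be told apart.

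In chronic CS, Gja1 was counted at 1919, 1715, 1657, 1962 and 1955 CPM in F and M1 to M4, against 2227, 1969 and 2403 CPM in chronic RA F, M1 and M2. Every smoke library lay below every control, though CS M3 and RA M1 were nearly level. Per 100 Prox1 reads there were 84.2 to 97.8 Gja1 reads in chronic CS and 101 to 131 in chronic RA, and on that scale too the groups did not overlap. The log2 fold change was -0.26 (SE 0.16, 95% interval -0.62 to 0.10, edgeR adjusted p = 0.586), and the exact two-sided permutation test over the 8 libraries gave p = 0.0357, the smallest it can give. Of the 8 genes, none was called in chronic CS, against 0% of all genes, while 2341 genes (10.9%) and 1 of the 8, Gja5, had an unadjusted p under 0.05. DESeq2 called 524 genes, Gja5 among them. The groups did not overlap in 2 of 8 genes, Gja1 and Gja5, against 9.41% of all genes.

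Gja5 (ENSMUSG00000057123, chr3:96904693-97077416, plus strand), known for its use in arterial endothelium and the conduction system of the heart, had the widest range of the 8 genes, 31.6-fold from the lowest to the highest library. Its level was 5.90 and 11.3 CPM in acute RA F and M, and 61.9 and 17.7 CPM in acute CS F and M. The female smoke library stood far above the male, and the male above both controls. The log2 fold change was 2.21 (SE 0.79, 95% interval 0.48 to 3.95), with an edgeR adjusted p of 0.186, and 1.05 (edgeR adjusted p = 0.796) without acute CS F. DESeq2 gave an adjusted p of 0.0345 for it. Without acute CS M the value was 2.85 (edgeR adjusted p = 0.0971), and scaled to the 6 lymphatic markers it was 3.12 (edgeR adjusted p = 0.0460).

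In the chronic libraries Gja5 was counted at 12.2, 7.48, 26.0, 12.4 and 7.23 CPM in CS F and M1 to M4, against 6.14, 1.96 and 2.27 CPM in RA F, M1 and M2. All 5 smoke libraries lay above all 3 controls, with CS M2 highest and RA F nearest to the smoke group. Smoke gave a log2 fold change of 1.92 (SE 0.61, 95% interval 0.59 to 3.25), with an edgeR adjusted p of 0.333, a DESeq2 adjusted p of 0.0256 and, in the exact two-sided permutation test, p = 0.0357. Chronic CS M3 and M4 were sequenced more deeply than the others, at 45436986 counts or more against 22885446 or fewer. The value was 2.16 with chronic CS F, M1 and M2 only and 1.51 with M3 and M4 only. It was 2.63 without chronic RA F and 1.51 without chronic CS M2. Summed over 10 arterial markers, chronic levels overlapped, at 1630 to 2166 CPM in RA and 1563 to 2078 CPM in CS. None of the 10 was called, nor was any gene in chronic CS, and their median log2 fold change was 0.12. Such a sum can hide changes of its less abundant genes. In acute CS the median was 2.01, at sums of 1624 to 1716 CPM in RA and 1800 to 1925 CPM in CS. The chronic sums that did not overlap were those of alveolar epithelial, mesenchymal and capillary markers. Alveolar epithelial sums were 473 to 711 CPM in RA and 1149 to 4786 CPM in CS, and mesenchymal sums 125 to 156 and 239 to 376 CPM. Capillary sums were lower in CS, at 5004 to 6087 CPM against 6178 to 6571 CPM in RA. The part of these markers' cells in the value of Gja5 was not tested. The acute minus the chronic change was 0.29 (SE 0.94, 95% interval -1.78 to 2.37, edgeR adjusted p = 0.957). Gja5 was counted at 68 to 3153 reads, and up to 165 bases of its exons overlap Gpr89 on the opposite strand, whose reads cannot be told apart where counting ignores strand.

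Gja4 (ENSMUSG00000050234, chr4:127311421-127314039, minus strand) encodes a connexin of arterial and lymphatic valve endothelium. Its level was 90.0 and 84.9 CPM in acute RA F and M, and 184 and 159 CPM in acute CS F and M. The controls lay close together and both smoke libraries above them, while the log2 fold change of 0.98 (SE 0.47, 95% interval -0.07 to 2.02) had an edgeR adjusted p of 0.363. Scaled to the 6 lymphatic markers it was 1.73 (edgeR adjusted p = 0.0436). In the chronic libraries it was counted at 197, 125 and 96.4 CPM in RA F, M1 and M2, and at 179.9, 134, 51.1, 133 and 175 CPM in CS F, M1, M2, M3 and M4. The groups overlapped throughout, with a log2 fold change of -0.05 (SE 0.34, 95% interval -0.80 to 0.71, edgeR adjusted p = 0.974), and the lowest level of all 12 libraries was in CS M2, where Gja5 was highest among the chronic libraries. All 3 chronic RA libraries lay above both acute RA libraries, by a log2 fold change of 0.67 (SE 0.44, edgeR adjusted p = 0.784).

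The make-up of connexin RNA was also followed per length. Of the summed FPKM of the 3 connexins, Gja1 held 81.5% and 79.5% in acute RA F and M, and 36.3% and 55.95% in the smoke libraries F and M. Gja4 held 18.2% and 19.7% in the controls and 58.0% and 42.7% in the smoke libraries. Gja5 held 0.349% and 0.769% in the controls and 5.71% and 1.39% in the smoke libraries. In acute CS F the FPKM of Gja4 was thus above that of Gja1, the only library of the 12 where that was so. In CPM, Gja1 was higher there, at 703 against 184. The lengths are all annotated exons together, 10257 bases for Gja1 and 1685 for Gja4. With a shorter length for Gja1 its shares would be larger, and the order in acute CS F could turn.

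**Figure D2:**
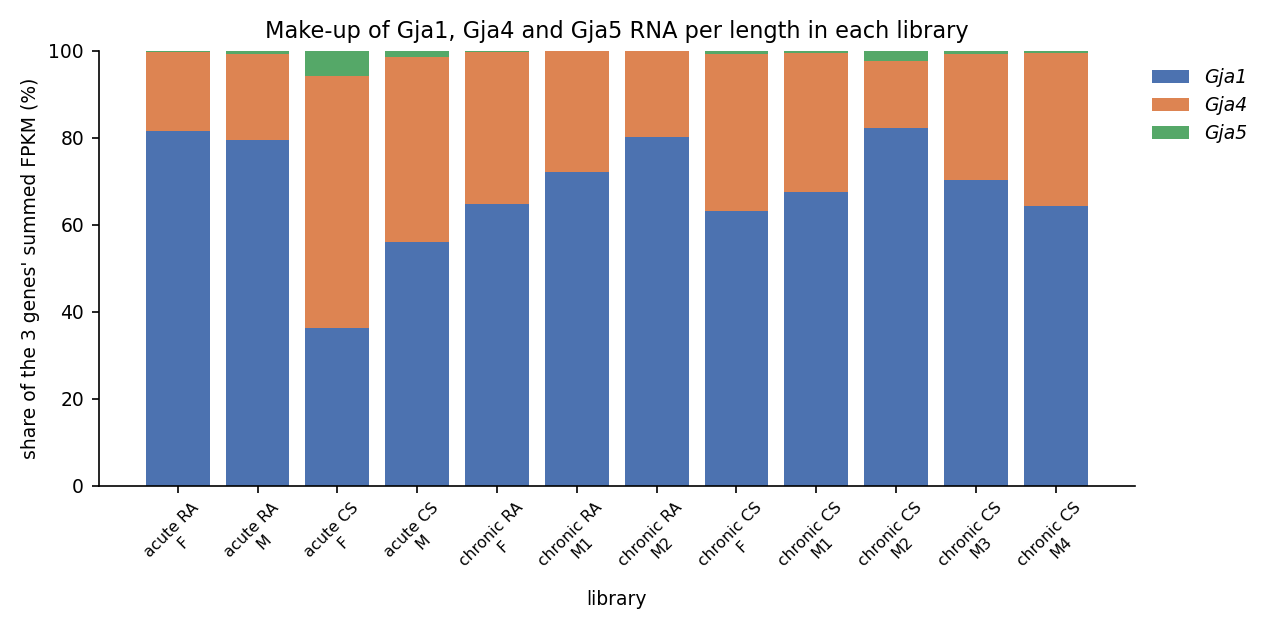
Bars give, for each of the 12 libraries, the share in percent of Gja1, Gja4 and Gja5 in their summed FPKM. Gja1 held 63.2% to 82.3% in the 10 libraries other than acute CS and 36.3% and 55.95% in acute CS F and M.

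In the chronic libraries the shares of Gja1 and Gja4 overlapped between the groups. Gja1 held 64.8% to 80.3% in RA and 63.2% to 82.3% in CS, and Gja4 19.6% to 34.9% in RA and 15.4% to 36.1% in CS. Gja5 held 0.128% to 0.319% in RA and 0.426% to 2.31% in CS, and these ranges did not overlap. No test was run on these shares, since they rest on the same counts.

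Cldn11 (ENSMUSG00000037625, chr3:31149920-31164324, plus strand), a claudin of tight junctions that also marks valve LECs, had the fewest reads, 47 to 169 in a library. The female and male controls of acute exposure had 2.75 and 2.52 CPM and the acute CS libraries 0.942 and 2.36 CPM. Both smoke libraries lay below both controls, the male by little, and the log2 fold change was -0.67 (SE 0.54, 95% interval -1.86 to 0.52, edgeR adjusted p = 0.655). It was -0.15 without acute CS F and -1.48 without acute CS M. In the chronic libraries it was counted at 2.98, 2.19 and 2.50 CPM in RA F, M1 and M2 and at 2.94, 3.65, 1.95, 3.62 and 2.69 CPM in CS F, M1, M2, M3 and M4. These groups overlapped, with a log2 fold change of 0.22 (SE 0.40, 95% interval -0.65 to 1.09, edgeR adjusted p = 0.873).

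Celsr1 (ENSMUSG00000016028, chr15:85898929-86033777, minus strand), a cadherin that bridges cells in core planar polarity, had a low level in every acute and a higher level in every chronic library. It was counted at 27.0 and 43.4 CPM in acute RA F and M, at 25.3 and 35.8 CPM in acute CS F and M, at 65.9, 61.3 and 91.5 CPM in chronic RA F, M1 and M2, and at 81.0, 62.8, 73.7, 77.1 and 65.7 CPM in chronic CS F, M1, M2, M3 and M4. The lowest chronic library was RA M1 and the highest acute library RA M, so both exposures were split by time point in the same way. Between the RA groups the log2 fold change was 1.05 (SE 0.25, 95% interval 0.50 to 1.60), with an edgeR unadjusted p of 0.00143, an edgeR adjusted p of 0.403 and a DESeq2 adjusted p of 0.0104. The exact two-sided permutation test of 3 against 2 libraries gave p = 0.2, the smallest it can give. Smoke gave log2 fold changes of -0.20 (SE 0.27, 95% interval -0.79 to 0.38) in acute and -0.02 (SE 0.19, 95% interval -0.44 to 0.41) in chronic libraries, with edgeR adjusted p of 0.834 and 0.986, and overlapping groups.

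Between the RA groups, none of the 8 genes was called, against 0% of all genes, while 1504 genes (7.01%) and 1 of the 8, Celsr1, had an unadjusted p under 0.05. DESeq2 called 253 genes. The groups did not overlap in 2 of 8 genes, Gja4 and Celsr1, against 34.7% of all genes. Gja5 had a log2 fold change of -1.31 (SE 0.69, edgeR adjusted p = 0.739), and those of the other 5 genes lay between -0.05 and 0.25. Summed lymphatic marker levels were 15250 to 17070 CPM in acute RA and 19930 to 22930 CPM in chronic RA. Scaled to 6 lymphatic markers, the value of Celsr1 was 0.53 (edgeR adjusted p = 0.244).

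Vangl2 (ENSMUSG00000026556, chr1:172000960-172028444, minus strand) encodes a transmembrane protein that partners Celsr1 in the core polarity complex. Its level was 14.2 and 12.6 CPM in acute RA F and M and 29.6 and 14.4 CPM in acute CS F and M. The male smoke library was level with the higher control, and the log2 fold change of 0.71 (SE 0.47, 95% interval -0.32 to 1.74, edgeR adjusted p = 0.543) was 0.10 without acute CS F and 1.54 with scaling to the 6 lymphatic markers (edgeR adjusted p = 0.0792). In chronic RA it was counted at 13.9, 14.4 and 13.4 CPM in F, M1 and M2, and in chronic CS at 14.0, 14.1, 5.40, 9.20 and 16.3 CPM in F, M1, M2, M3 and M4. The controls lay close together, with a coefficient of variation of 3.56%, and the smoke libraries spread to both sides of them. Smoke gave a log2 fold change of -0.24 (SE 0.34, 95% interval -0.98 to 0.51, edgeR adjusted p = 0.832).

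Fat4 (ENSMUSG00000046743, chr3:38886940-39011985, plus strand), an atypical cadherin whose human counterpart is mutated in a syndrome of lymphatic malformation, was counted at 8.89 and 5.45 CPM in acute RA F and M and at 23.6 and 13.7 CPM in acute CS F and M. Both smoke libraries lay above both controls, and F lay above M in either group. In the fit the log2 fold change was 1.38 (SE 0.44, 95% interval 0.41 to 2.34), with an edgeR unadjusted p of 0.0092, an edgeR adjusted p of 0.134 and a DESeq2 adjusted p of 0.0240. Scaled to the 6 lymphatic markers it was 2.16 (edgeR adjusted p = 0.0310). In the chronic libraries it was counted at 7.99, 10.7 and 6.80 CPM in RA F, M1 and M2 and at 6.56, 14.1, 9.93, 10.8 and 7.73 CPM in CS F, M1, M2, M3 and M4. These groups overlapped at a log2 fold change of 0.21 (SE 0.32, 95% interval -0.49 to 0.91, edgeR adjusted p = 0.843). The antisense gene C230034O21Rik shares 674 exon bases with Fat4 but never exceeded 68 reads.

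Dchs1 (ENSMUSG00000036862, chr7:105752990-105787654, minus strand), the cadherin that binds Fat4 on the next cell, had the narrowest range of the 8 genes, 1.96-fold over the 12 libraries. It was counted at 44.0 and 47.4 CPM in acute RA F and M, at 44.7 and 42.6 CPM in acute CS F and M, at 44.4, 51.6 and 45.8 CPM in chronic RA F, M1 and M2, and at 59.2, 54.0, 72.8, 41.4 and 37.1 CPM in chronic CS F, M1, M2, M3 and M4. The acute groups overlapped. In chronic CS, F, M1 and M2 lay above every chronic control and the more deeply sequenced M3 and M4 below every one. The log2 fold changes were -0.07 (SE 0.27, 95% interval -0.66 to 0.52) in acute and 0.16 (SE 0.20, 95% interval -0.27 to 0.60) in chronic CS, with edgeR adjusted p of 0.966 and 0.798. These intervals leave room for changes of up to 0.66 on the log2 scale. The chronic value was 0.41 (edgeR adjusted p = 0.242) with chronic CS F, M1 and M2 only and -0.27 (edgeR adjusted p = 0.434) with M3 and M4 only. Scaled to 6 lymphatic markers the acute value was 0.67 (edgeR adjusted p = 0.241), beside a median of 0.77 for all genes.

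**Figure D3:**
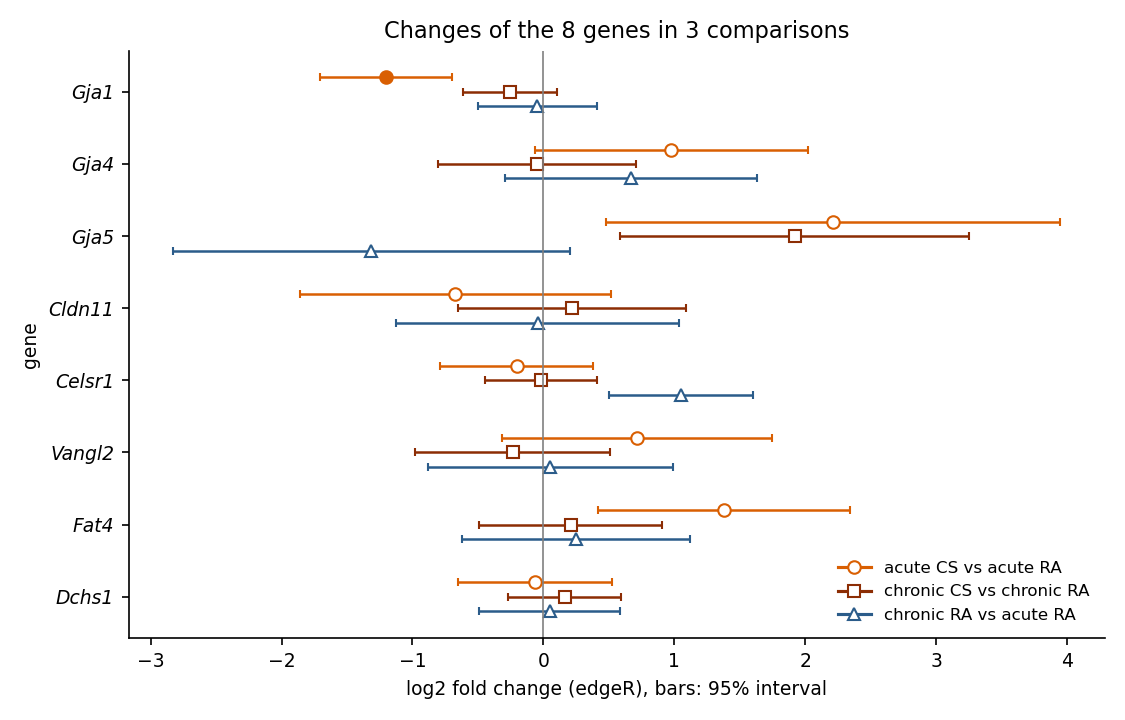
The log2 fold change of each of the 8 genes from edgeR is plotted on the horizontal axis, with its 95% interval as a bar, for acute CS against RA (circles), chronic CS against RA (squares) and chronic against acute RA (triangles). A filled symbol marks an adjusted p under 0.05, reached here only by Gja1 in acute CS.

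The acute and chronic changes were set against each other in the same fit. None of the 8 genes was called, against 0.452% of all genes. Gja1 had the smallest unadjusted p, with an acute minus chronic difference of -0.94 on the log2 scale (SE 0.28, 95% interval -1.56 to -0.33, unadjusted p = 0.00633, edgeR adjusted p = 0.188). DESeq2 gave an adjusted p of 0.0219 for it. When acute CS M was left out edgeR gave 0.0139, a value that rests on acute CS F as the lone acute smoke library. For Fat4 the difference was 1.17 (SE 0.53, edgeR adjusted p = 0.422), for Gja4 1.02 (SE 0.58, edgeR adjusted p = 0.546) and for Vangl2 0.95 (SE 0.58, edgeR adjusted p = 0.584).

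Markers of other cells moved with acute CS, where 3.47% of all genes were called, and their part in the 8 genes' changes was not tested. Of 10 arterial endothelial markers 4 were called higher and none lower in acute CS, with summed levels of 1624 to 1716 CPM in acute RA and 1800 to 1925 CPM in acute CS. Hey1, an arterial transcription factor gene, was counted at 25.01 and 18.6 CPM in acute RA F and M and at 121 and 62.6 CPM in acute CS F and M. Gkn3, a marker of lung arterial cells, was at 0 in both acute RA libraries and at 0.589 and 0.998 CPM in acute CS F and M. Of 10 capillary markers 6 were called higher and none lower, with summed levels of 5453 to 6590 CPM in RA and 6930 to 9143 CPM in CS. Their leading gene Car4 rose from 41.5 and 34.5 CPM to 669.9 and 292 CPM in F and M. Of 11 mesenchymal markers 7 were called higher and none lower, at summed levels of 149 to 215 CPM in RA and 689 to 1070 CPM in CS. In chronic CS, where 0% of all genes were called, none of the 11 was, at 125 to 156 CPM in RA and 239 to 376 CPM in CS.

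Of 8 lymphatic markers 3 were called lower and none higher in acute CS, at summed levels of 15250 to 17070 CPM in RA and 6485 to 9822 CPM in CS. Of 8 leukocyte markers 6 were called higher, at 105 to 115 CPM in RA and 1307 to 2156 CPM in CS, although the sort removed lineage-positive cells. Of 9 alveolar macrophage markers 5 were called higher and 1 lower, at 717 to 811 CPM in RA and 2542 to 2594 CPM in CS. Of 11 alveolar epithelial markers 1 was called higher, and their sum was 6646 CPM in acute CS F and 376 CPM in acute CS M, against 900 to 1252 CPM in RA. No airway, mesothelial or erythroid marker was called. Their summed levels in acute RA and CS were 182 to 1302 and 200.4 to 2786 CPM for airway, 6.30 to 25.6 and 80.8 to 121 CPM for mesothelial, and 37.7 to 69.9 and 10.7 to 698 CPM for erythroid genes. Without acute CS F, 1 arterial, 2 capillary, 3 mesenchymal, 5 leukocyte and 1 alveolar macrophage marker were called higher and 1 lymphatic marker lower. Leaving out acute CS M instead gave 5 arterial, 6 capillary, 3 mesenchymal, 7 leukocyte, 5 alveolar macrophage and 2 alveolar epithelial markers higher, and 6 lymphatic, 1 arterial and 1 alveolar macrophage marker lower. Total counts ran from 18821438 to 56998590 per library.

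**Figure D4:**
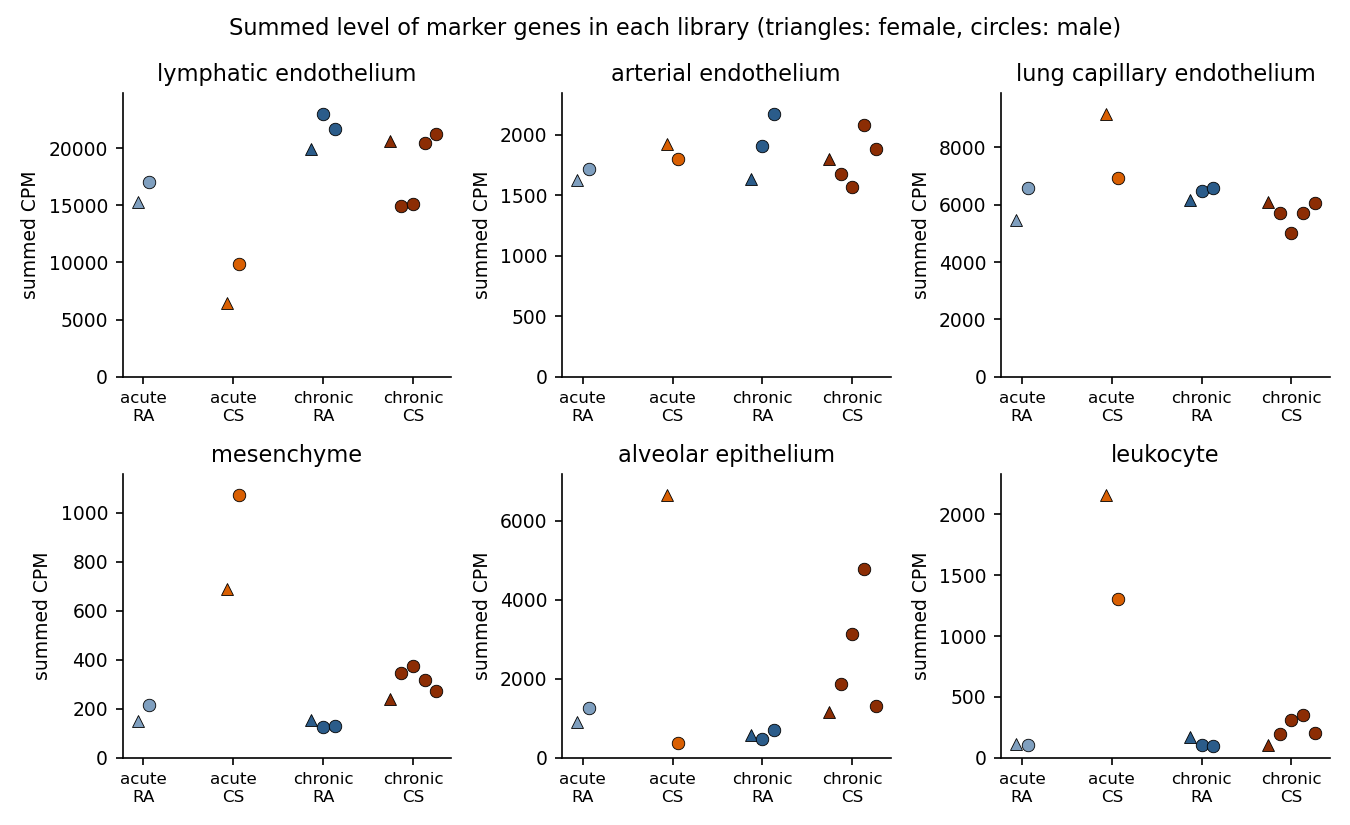
The summed CPM of 6 marker lists is plotted for each library on linear axes from 0, with triangles for female and circles for male libraries. In acute CS the lymphatic sum was 6485 in F and 9822 in M, below all other libraries, and the mesenchymal and leukocyte sums were above all other libraries.

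The other genes of these pathways were taken from lists written by role. Of all genes, 3.47% were called in acute CS. Of 25 further lymphatic valve genes, 6 were called higher and 2 lower in acute CS, and the median of their log2 fold changes was 0.07. The guidance receptor gene Nrp1 rose by 4.03 (SE 0.57, edgeR adjusted p = 0.00604), from 36.4 ± 1.95 to 593 ± 314 CPM (SD, n = 2), and the endothelial BMP receptor gene Acvrl1 by 2.002 (SE 0.30, edgeR adjusted p = 0.00670). Itga9, the integrin chain that anchors valve leaflets to fibronectin, fell by 1.58 (SE 0.25, edgeR adjusted p = 0.00824), from 1048 ± 88.9 to 350 ± 106 CPM (SD, n = 2). Without acute CS F, 2 of the 25 were called higher and none lower, and without acute CS M 7 and 2. Foxc2, the transcription factor that sets valve identity, was counted at 49.9 and 41.7 CPM in acute RA F and M and at 14.8 and 47.9 CPM in acute CS F and M, a log2 fold change of -0.55 (SE 0.43, edgeR adjusted p = 0.638). Its lowest level of the 12 libraries was in acute CS F, as for Cldn11, and acute CS M lay between the controls for Foxc2.

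Of 20 other connexins and pannexins, 9 passed the filter, and the median of their log2 fold changes in acute CS was 0.06. Of 23 other claudins, 10 passed the filter, none was called in acute CS, and the median was 1.44. Without acute CS F, 12 claudins passed the filter and the median was -0.06, and without acute CS M 1 of 11 was called higher, with a median of 1.70. The main endothelial claudin gene Cldn5, at 2376 ± 248 CPM (SD, n = 5) over the RA libraries, had a log2 fold change of -0.09 (SE 0.15, edgeR adjusted p = 0.894).

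Of 18 other core polarity genes, 1 was called higher and none lower in acute CS, with a median of 0.17. It was Prickle1, whose product binds Vangl proteins inside the cell, at 1.49 (SE 0.33, edgeR adjusted p = 0.0312), from 60.5 ± 10.6 to 170 ± 89.9 CPM (SD, n = 2). Of 23 tested genes of the Fat-Dachsous and Hippo pathways, 1 was called higher and none lower, with a median of 0.07 (-0.05 without acute CS F). The gene called was Stk4, a core Hippo kinase gene, at 1.73 (SE 0.37, edgeR adjusted p = 0.0273), from 43.1 ± 1.39 to 143 ± 88.5 CPM (SD, n = 2). Neither was called without acute CS F. Of the 18 core polarity genes, none was then called, with a median of 0.04, while without acute CS M 2 were called higher and 1 lower, with a median of 0.35. The calls in acute CS, 1 of 18 and 1 of 23, stand beside 3.47% of all genes. In chronic CS and between the RA groups no gene of the 5 lists was called, nor was any of the 21440 genes.

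The genes whose course over the 12 libraries was nearest to each of the 8 were found as the smallest root mean square difference of log2 CPM, each gene centred on its own mean, among 12428 genes. This is a description of the libraries, which share their groups and cell make-up. Nearest to Gja1 were Tmem198b at 0.0887 and Smyd2 at 0.149, where the median of all genes was 0.552. Nearest to Gja4 were E330009J07Rik at 0.267 and Mcm2 at 0.269. Nearest to Gja5 were Fgf1 at 0.496 and St6galnac2 at 0.553, where the median of all genes was 1.39. Nearest to Cldn11 were Foxc2 at 0.216 and Tnfaip8l1 at 0.232, to Celsr1 Hic1 at 0.286 and Kbtbd11 at 0.295, and to Vangl2 Dennd4b at 0.262 and Fam234b at 0.273. Nearest to Fat4 were Adgrl1 at 0.237 and Pim1 at 0.264, and to Dchs1 Sbno1 at 0.128 and Trib1 at 0.143.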

How the data were processed

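RNA of sorted lung LECs was sequenced in 12 libraries made from polyadenylated RNA with the SMART-Seq v4 and Nextera XT kits. The authors deposited raw counts of reads per Ensembl gene. Their notes name FastQC 0.11.9 and STAR with GRCm38 (mm10), and their methods add trimming with Skewer and quality control with Minion. The counting was the gene mode of STAR. Its annotation release and strand setting are not given in the sources used here, nor is a rule for reads that map to several places. Nothing says that libraries of a group came from separate litters or runs, so p-values measure the spread between these libraries.

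Gene names, positions and exon lengths were taken from GENCODE M21, in which 147 identifiers, with at most 0.011% of a library's counts, were not found. The counts went through edgeR 4.0.16 in R 4.3.3 (filterByExpr by group, TMM factors, quasi-likelihood F-test), with Python 3.11.15, pandas 2.3.3 and matplotlib 3.10.9 for tables and figures. Log2 CPM of single libraries used a prior count of 2. Single values were compared by exact two-sided permutation tests. The alternatives were DESeq2 1.42.0, RLE factors, library size alone, scaling to 6 lymphatic markers (Prox1, Flt4, Lyve1, Pdpn, Reln and Mmrn1), all genes with a count, a fit of the compared groups alone, a term for sex, a replicate block, robust estimation, parts of the chronic CS group, and leaving out each library.

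The 8 genes and all lists were chosen with earlier results of these data known. The genes named are the 8, the up to 3 genes of each pathway list with the smallest p among those called, Prox1, Foxc2, the leading markers and the 2 genes nearest to each of the 8. A gene that this rule names is not reported here. Cldn5, Gpr89 and C230034O21Rik were named after their values were seen. A floor of 3 counts was 0.159 CPM in the shallowest and 0.0526 CPM in the deepest library, for counting error only. On simulated counts over 21440 genes, edgeR recovered 7 of 108 genes changed by 1 and 41 of 87 changed by 2 on the log2 scale in the acute comparison, and 22 of 99 and 50 of 92 in the chronic comparison. Promoter stretches come from RefSeq.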

Additional observations from a re-analysis of the deposited data

Results flagged for a closer look

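Among the 8 genes in the 5 chronic CS libraries, 1 value stood far from the rest of its group. Gja5 was counted at 26.0 CPM in chronic CS M2, and the next library was M3 at 12.4 CPM. On linear CPM this gap took up more of the group's range than Dixon's 95% limit allows, at a ratio of 0.726 against 0.71. The limit assumes normal values, and the flag depends on the scale. In log2 CPM, M2 stood at 4.70, M3 at 3.64 and the lowest, M4, at 2.87, where the limit was not tested. Chance does so in about 1 in 20 groups, and 8 groups were tested. Without this library the chronic log2 fold change of Gja5 was 1.51 (edgeR adjusted p = 0.414). In the same library Gja4 (51.1 CPM) and Vangl2 (5.40 CPM) had their lowest and Dchs1 (72.8 CPM) its highest level of the 12 libraries.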

How the results depend on the processing

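The call of Gja1 in acute CS was the result that depended most on the processing. In acute CS, 1 of the 8 genes was called in the reported fit, 3 with DESeq2 (Gja1, Gja5 and Fat4), 3 with scaling to 6 lymphatic markers (Gja4, Gja5 and Fat4), 0 with only the groups compared, 0 with the replicate block and 0 to 1 without 1 library. In chronic CS, between the RA groups and for the acute minus chronic difference, DESeq2 called 1 gene each (Gja5, Celsr1 and Gja1) where edgeR called 0, and leaving out 1 library gave 0 to 1 for the difference. The cause was not tested. DESeq2 also called more genes in all, 1961 against 745 in acute CS and 920 against 97 for the difference. Only the groups compared gave 139 genes and the replicate block 73 in acute CS, with fewer residual degrees of freedom, and the difference gave 0 genes with the block and 21 with sex as a covariate. Scaling to the 6 markers gave 3002 genes in acute CS, 2994 of them higher against 590 of 745 in the reported fit, and moved the median log2 fold change of all genes to 0.77 in acute CS, 0.16 in chronic CS and -0.54 between the RA groups. It called 445 genes for the difference, all higher, and library size alone called 91, of which 68 were higher against 86 of 97 in the reported fit, with a median of -0.10 between the RA groups. With no filter on low counts, 10 genes were called in chronic CS, 6 between the RA groups and 191 for the difference, and only the groups compared gave 42 between the RA groups. None of these sets held a further one of the 8 genes.

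Values near 0 changed sign. With scaling to 6 markers, Celsr1 was 0.50 in acute CS, 0.13 in chronic CS and 0.37 for the difference, Dchs1 0.67 in acute CS, -0.49 between the RA groups and 0.33 for the difference, Gja4 0.036 in chronic CS, and Vangl2 -0.49 and Fat4 -0.32 between the RA groups. With library size alone, Gja4 was 0.021 and Celsr1 0.070 in chronic CS, and Vangl2 -0.053 and Dchs1 -0.059 between the RA groups. Celsr1 in chronic CS was 0.018 with DESeq2 and with RLE factors, 0.0064 with the replicate block and 0.0078 with chronic CS F, M1 and M2 only. With sex as a covariate Gja4 was 0.041 in chronic CS and the difference of Gja5 -0.20, which was -0.11 with the replicate block. With chronic CS M3 and M4 only, Gja4 was 0.15 and Dchs1 -0.27 in chronic CS, and the difference of Dchs1 0.20. None of these values was called.

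Leaving out 1 library at a time, the sign also changed for Celsr1 in acute CS (-0.50 to 0.15), chronic CS (-0.12 to 0.19) and for the difference (-0.49 to 0.16), for Gja4 in chronic CS (-0.24 to 0.29) and for the difference of Gja5 (-0.87 to 0.93). Between the RA groups it changed for Gja1 (-0.18 to 0.080), Cldn11 (-0.18 to 0.047), Vangl2 (-0.047 to 0.14), Fat4 (-0.080 to 0.64) and Dchs1 (-0.028 to 0.084). None of these values was called.

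Pairing by sex and number was looked at through correlations of deviations from the group mean. In the chronic libraries these were -0.042 to 0.034 where the labels matched and -0.105 to 0.069 where they did not. With 2 libraries in each acute group the deviations mirror each other, so both acute pairs must give 1 value, which was 0.069. That value cannot show whether the acute libraries pair. With the replicate block the acute log2 fold change of Gja1 was -1.26 (edgeR adjusted p = 0.1101), and no paired analysis was possible between the RA groups, because the block is set within a time point. Depth limited Cldn11 most, at 47 to 169 reads.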
